A study of Mus musculus with 8 samples.

Results

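Transcript levels of 10 genes of bile acid synthesis, conjugation and transport were followed in mouse liver at 2 times of day, with and without the polymethoxyflavone sudachitin. The members are Cyp7a1, Cyp8b1, Cyp27a1, Cyp7b1, Akr1d1, Baat, Slc27a5, Abcb11, Abcb4 and Slc10a1, picked by gene symbol. Each symbol had 1 row in the tables, so the members are 10 of 55421 rows, and all 10 were among the 14506 rows with enough counts to be tested. The animals were male C57BL/6J mice, and all of them, controls included, ate a diet with 45% of its calories from fat. Control mice received PBS by gavage and the others received sudachitin at 100 mg per kg, every other day between ZT8 and ZT10 (ZT is zeitgeber time, the hours after lights on). Livers came from mice aged 30 weeks and were sampled at ZT6, in the rest phase of a mouse, or at ZT18, in its active phase. RNA of 2 mice was sequenced for each of the 4 groups (control ZT6, control ZT18, sudachitin ZT6 and sudachitin ZT18), which gives 8 libraries.

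Bile acids are made from cholesterol in hepatocytes. The classic route starts with CYP7A1, its rate-limiting enzyme, and CYP8B1 then sets how much cholic acid is formed. An alternative route starts with CYP27A1 and CYP7B1, which act on oxysterols, and AKR1D1 reduces the steroid ring of intermediates of both routes. SLC27A5 activates bile acids with coenzyme A and BAAT joins them to taurine or glycine. ABCB11, the bile salt export pump, moves the conjugates into bile, ABCB4 supplies the phospholipid that accompanies them, and SLC10A1 takes returning bile salts up from portal blood. Bile acids limit their own synthesis through the receptor FXR (Nr1h4) and its target SHP (Nr0b2), and through the intestinal hormone FGF15, which acts on FGFR4 and KLB in the liver; FXR also activates Abcb11. Transcription of Cyp7a1 follows a daily rhythm in rodent liver.

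Libraries held 13914116 to 17759630.5 counts in exons. The summed level of 10 hepatocyte markers was 96800 to 116000 CPM (counts scaled to library size), against 65.4 to 122 CPM for 8 cholangiocyte markers. Of 7 genes listed as ileum markers, Fgf15 and Fabp6 were at 0 in each library, but 3 had enough counts to be tested. These were Fabp2 at 111 to 191 CPM, Slc10a2 at 44.5 to 69.6 CPM and Lgals4 at 3.81 to 14.8 CPM. Control ZT18 replicate 1 stood apart. It held the top or bottom value among the 8 libraries for 38.2% of tested genes, against 17.4% to 27.7% for each of the others. It was the lowest for 10 of 12 genes known to be higher in male than in female mouse liver, and the summed level of 11 female-biased genes was 368 CPM in it and 2.76 to 28.8 CPM elsewhere. It was also the lowest of 8 for 4 of the 10 members, and several results are also given without it. In whole liver, fewer cells of a type and less RNA per cell cannot be told apart. The 2 mice of each ZT6 group share the start of the code in their sample titles, and no code start recurs in another group, so whatever the codes stand for, which the labels do not say, cannot be told apart from treatment and time.

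Levels per transcript length are given in FPKM (counts scaled to exon length and to the library total), which allows genes to be compared. Averaged over the 8 libraries, the order was Slc10a1 at 165 FPKM, Slc27a5 at 160, Cyp27a1 at 104, Cyp8b1 at 102, Baat at 61.3, Abcb11 at 50.1, Akr1d1 at 36.6, Abcb4 at 33.4, Cyp7b1 at 31.1 and Cyp7a1 at 7.05 FPKM. Over the libraries, the ranges of neighbours in this order overlapped, except that the lowest Slc27a5 value, 135 FPKM, lay above the highest Cyp27a1 value, 119 FPKM. Cyp7a1, the rate-limiting enzyme, was thus the member with the lowest mean level, and it was also the most variable, with a highest value 9.62 times its lowest. This ratio of highest to lowest library was 6.34 for Cyp7b1, 2.09 for Cyp8b1, 1.98 for Abcb11 and 1.23 to 1.58 for the other 6 members.

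**Figure D1:**
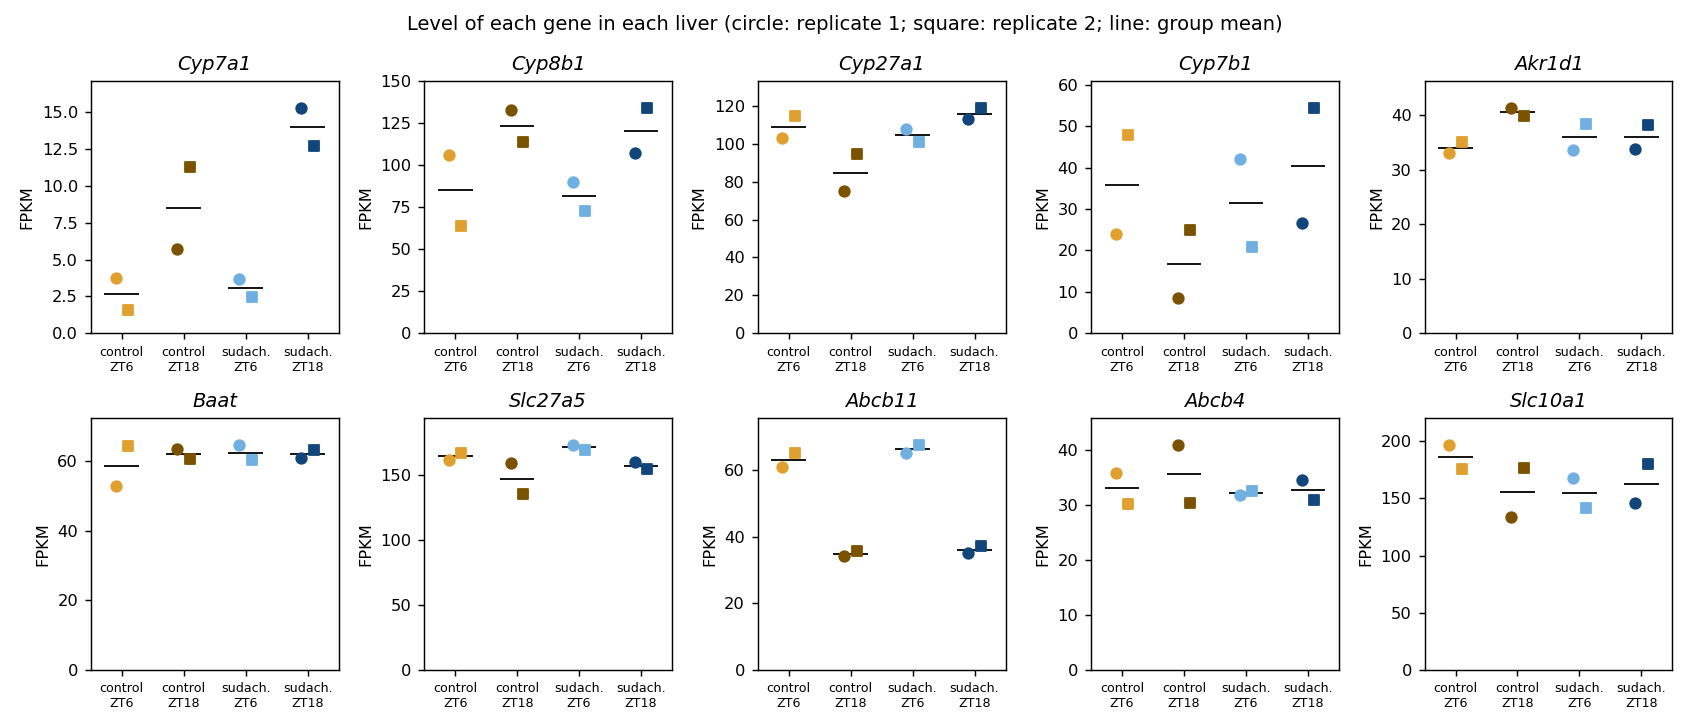
Level of each of the 10 genes in FPKM (vertical axis, from 0) in each of the 8 livers, by group; circles are replicate 1, squares replicate 2 and lines group means. Abcb11 separates ZT6 from ZT18 with little spread within groups, Cyp7a1 separates them with more spread, and Cyp7b1 varies as much within groups as between them.

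Cyp7a1 was higher at night in both treatments. The gene lies at chr4:6265612-6275631 on the minus strand of GRCm38 (mm10). Its level was 3.73 and 1.59 FPKM in the control ZT6 livers and 5.74 and 11.3 FPKM in the control ZT18 livers. In sudachitin livers it was 3.66 and 2.47 FPKM at ZT6 and 15.3 and 12.7 FPKM at ZT18. Each of the 4 night livers was above each of the 4 day livers. Over both treatments Cyp7a1 rose 3.99-fold from ZT6 to ZT18 (95% interval 2.44 to 6.53; log2 change 2.0, SE 0.32, edgeR adjusted p = 0.012). Its change was 1.72 on the log2 scale (SE 0.44, edgeR adjusted p = 0.17) within control livers and 2.26 (SE 0.45, adjusted p = 0.098) within sudachitin livers, and neither passed the threshold of 0.05 by itself. The control change was 1.08 without control ZT18 replicate 2 and 2.47 without control ZT6 replicate 1. Over both treatments the rise was 2.22 (adjusted p = 0.0023) without control ZT18 replicate 1 and 2.05 (adjusted p = 0.052) without sudachitin ZT6 replicate 1, which ends the call.

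Cyp8b1, the branch enzyme toward cholic acid, lay higher at night without passing the edgeR test. It occupies chr9:121914356-121916305 on the minus strand. In control livers it measured 106 and 63.9 FPKM at ZT6 and 133 and 114 FPKM at ZT18. In sudachitin livers it measured 89.9 and 72.9 FPKM at ZT6 and 107 and 134 FPKM at ZT18. The day and night values did not overlap, although the highest day value and the lowest night value were 106 and 107 FPKM. The log2 change over both treatments was 0.60 (SE 0.16, 95% interval 0.24 to 0.97, edgeR adjusted p = 0.08), a ratio of 1.52. DESeq2 (adjusted p = 0.0078) and edgeR with no filter on low counts (adjusted p = 1.2e-05) did call it over both treatments.

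The promoters of Cyp8b1 and Abcb11 are shown because these 2 members lie downstream of nuclear receptors measured here, NR5A2 (LRH-1) for Cyp8b1 and FXR for Abcb11. RefSeq windows of GRCm38.p6, from 250 bases before to 50 after the start, were at hand for 6 of the 10 members. Capitals in the Cyp8b1 window (chr9:121916256-121916555, minus strand) mark the closest match to the NR5A2-type site CAAGGTCA, with 1 mismatch, at 60 to 53 bases before the start. Capitals in the Abcb11 window (chr2:69342567-69342866, minus strand) mark the closest match to the inverted repeat bound by FXR, that is, a pair of AGGTCA elements facing each other with 1 base between, with 1 mismatch, at 63 to 51 bases before the start.
Cyp8b1 promoter: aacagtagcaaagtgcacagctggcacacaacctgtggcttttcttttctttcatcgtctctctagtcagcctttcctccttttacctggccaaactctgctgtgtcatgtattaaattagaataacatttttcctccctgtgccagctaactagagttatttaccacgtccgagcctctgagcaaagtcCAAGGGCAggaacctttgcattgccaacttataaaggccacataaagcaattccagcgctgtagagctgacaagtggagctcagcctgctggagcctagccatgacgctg
Abcb11 promoter: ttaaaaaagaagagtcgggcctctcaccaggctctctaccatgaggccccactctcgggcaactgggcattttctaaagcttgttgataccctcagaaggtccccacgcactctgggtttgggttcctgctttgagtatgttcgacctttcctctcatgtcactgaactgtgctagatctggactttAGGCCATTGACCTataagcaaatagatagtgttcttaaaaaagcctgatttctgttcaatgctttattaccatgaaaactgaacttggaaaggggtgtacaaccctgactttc
Both strands were searched in 32851 windows of the same length. A match to the NR5A2-type site with at most 1 mismatch was in 23.031% of windows and an exact one in 1.559%. A match to the inverted repeat with at most 1 mismatch was in 0.082% of windows and an exact one in 0.009%. The marked stretch of Abcb11 ends in an exact AGGTCA element on the other strand, which 16.255% of windows hold. Neither window held an exact D-box TTATGTAA or TTACGTAA (0.938% and 0.119% of windows) or an exact E-box CACGTG (7.15% of windows). The allowance of mismatches was chosen after the windows were read, and a match is a description of letters only.

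The alternative route showed no change with time that passed the test, and Cyp7b1 varied between mice. Cyp27a1 (chr1:74713574-74737892, plus strand), the sterol hydroxylase of mitochondria, measured 103 and 115 FPKM in control ZT6 and 75.2 and 94.5 FPKM in control ZT18 livers. In sudachitin livers it measured 108 and 101 FPKM at ZT6 and 113 and 119 FPKM at ZT18. Night values thus lay below day values in control livers and above them in sudachitin livers. Day and night did not overlap for 40.4% and 48.8% of all tested genes in these treatments. The log2 changes from ZT6 to ZT18 were -0.33 (SE 0.16, edgeR adjusted p = 0.43) and 0.23 (SE 0.16, adjusted p = 0.61). The control change was -0.14 without control ZT18 replicate 1 and -0.57 without control ZT18 replicate 2.

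Cyp7b1 (chr3:18071950-18243338, minus strand), the oxysterol hydroxylase, is known to be higher in male than in female mouse liver. In control livers it measured 23.9 and 47.9 FPKM at ZT6 and 8.57 and 24.8 FPKM at ZT18. In sudachitin livers it measured 42.1 and 20.9 FPKM at ZT6 and 26.5 and 54.4 FPKM at ZT18. The 2 mice of each group differed by 2 to 2.89 times, and day and night overlapped in both treatments. From ZT6 to ZT18 its log2 change in control livers was -1.05 (SE 0.59, edgeR adjusted p = 0.50). With sudachitin it was 0.44 (SE 0.58, edgeR adjusted p = 0.80). Single livers moved the control change, to -0.46 without control ZT18 replicate 1, -0.49 without control ZT6 replicate 2 and -2.09 without control ZT18 replicate 2. The sudachitin change ran from -0.19 to 1.04 as single livers were left out.

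Male-biased genes varied between the same livers. The summed level of the 12 male-biased genes in control livers was 2630 and 3260 FPKM at ZT6 and 1660 and 2930 FPKM at ZT18. With sudachitin it was 2900 and 1800 FPKM at ZT6 and 4470 and 3060 FPKM at ZT18. Mup20 made up most of each sum, at 1310 FPKM in control ZT18 replicate 1 and 3770 FPKM in sudachitin ZT18 replicate 1. The latter had the highest sum but was highest for only 1 of the 12 genes, against 7 for sudachitin ZT18 replicate 2. Control ZT18 replicate 1 had the lowest sum and the lowest value of Cyp7b1 and of Cyp27a1. Slco1a1, a male-biased organic anion carrier of the list, was at 3.81 FPKM in that liver and at 45.7 to 68.7 FPKM in the others. The part of this difference in the values of Cyp7b1 and Cyp27a1 was not tested.

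**Figure D2:**
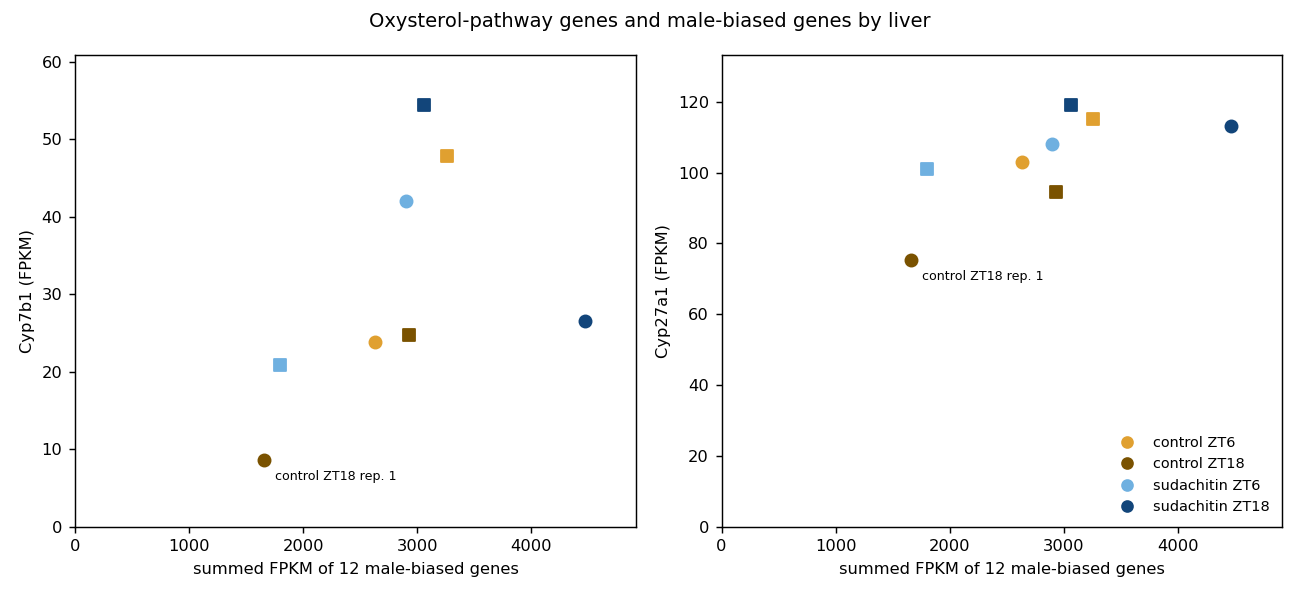
Level of Cyp7b1 (left) and of Cyp27a1 (right) in FPKM against the summed FPKM of 12 male-biased genes, 1 point per liver; colour gives the group, circles replicate 1 and squares replicate 2. Control ZT18 replicate 1, with a sum of 1660 FPKM, lies lowest in both panels. Most of each sum is the level of Mup20.

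Akr1d1 and the conjugation enzymes had the smallest ratios of highest to lowest library among the members, 1.23 to 1.28. Akr1d1 (chr6:37530173-37568815, plus strand), the steroid ring reductase, ranged from 33.1 to 41.3 FPKM with a median of 36.5. Its control values were 33.1 and 35 FPKM at ZT6 and 41.3 and 39.9 FPKM at ZT18, without overlap, but the log2 change of 0.28 (SE 0.13, edgeR adjusted p = 0.41) did not pass, and in sudachitin livers the day and night values overlapped. Slc27a5 (chr7:12988346-12998150, minus strand), the bile acid coenzyme A ligase, ranged from 135 to 173 FPKM with a median of 160. Its day values, from 161 FPKM upward, lay just above its night values, which reached 160 FPKM. The log2 change over both treatments was only -0.09 (95% interval -0.26 to 0.09, edgeR adjusted p = 0.57), and on the CPM scale day and night overlapped. Baat (chr4:49489422-49506557, minus strand), the enzyme that adds taurine or glycine, ranged from 52.8 to 64.8 FPKM with a median of 62.1 and overlapped between day and night in both treatments. Its log2 change over both treatments was 0.09 (95% interval -0.10 to 0.29, edgeR adjusted p = 0.60).

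Abcb11, the bile salt export pump, fell at night and was the member with the clearest separation of the times. The gene lies at chr2:69238282-69342614 on the minus strand, behind the second promoter shown above. It measured 61.1 and 65.2 FPKM in control ZT6 livers and 34.2 and 35.6 FPKM in control ZT18 livers. In sudachitin livers it measured 65.2 and 67.7 FPKM at ZT6 and 35.1 and 37.1 FPKM at ZT18. The groups of each time did not overlap with those of the other time. Within each group the higher mouse was at most 1.07 times the lower in FPKM. The spread was larger on the CPM scale in control ZT18 livers, at 345 and 389 CPM. Over both treatments Abcb11 fell to 0.569 times its ZT6 level (95% interval 0.502 to 0.645; log2 change -0.81, SE 0.08, edgeR adjusted p = 0.0019). Within control livers its log2 change was -0.83 (SE 0.12, edgeR adjusted p = 0.036). Within sudachitin livers the change was -0.80 (SE 0.12, edgeR adjusted p = 0.058), which did not pass. Without control ZT18 replicate 1 it was -0.75 (adjusted p = 0.081) in control livers and -0.79 (adjusted p = 0.0016) over both treatments. Libraries did not mark strand, and the exons of Abcb11 share 136 bases, or 2.78% of their length, with the opposite-strand gene Gm13613, listed at 1.976 to 4.143 FPKM. Reads of that stretch cannot be told apart.

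The other transporters showed no change with time that passed the test. Abcb4 (chr5:8893717-8959226, plus strand), the phospholipid floppase that shares the canalicular membrane with ABCB11, ranged from 30.2 to 41 FPKM with a median of 32.1. Its log2 change from ZT6 to ZT18 over both treatments was 0.12 (SE 0.10, 95% interval -0.10 to 0.34, edgeR adjusted p = 0.55). Slc10a1 (chr12:80953183-80968705, minus strand), the sodium-dependent uptake carrier, ranged from 134 to 197 FPKM with a median of 172. Its log2 change was -0.04 (SE 0.15, 95% interval -0.37 to 0.29, edgeR adjusted p = 0.91). FPKM values of day and night overlapped for both genes in each treatment. On the CPM scale Abcb4 did not overlap in sudachitin livers, at 277 and 277 CPM by day and 311 and 285 CPM by night.

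Counted together, 1 of the 10 members (Abcb11) passed an edgeR adjusted p of 0.05 between ZT6 and ZT18 in control livers, where 0.524% of the 14506 tested genes passed; 3 members (Abcb11, Cyp7a1 and Cyp8b1) had an unadjusted p under 0.05, beside 12.9% of tested genes. In sudachitin livers none of the 10 passed, where 0.186% of tested genes did; the same 3 members had an unadjusted p under 0.05, beside 12.6% of tested genes, and DESeq2 called 2 members and 2.09% of the genes it tested. Over both treatments 2 passed, Cyp7a1 upward and Abcb11 downward, where 3.68% of tested genes did. The members' median log2 change over both treatments was 0.03, beside 0.02 for all tested genes. FPKM values of day and night did not overlap for 6 members in control livers (40.4% of tested genes), for 5 in sudachitin livers (48.8%) and for 4 over both treatments (13.3%). With 2 mice a group such separation is common over all genes. The comparisons within control and within sudachitin livers share no library, although the spread was estimated over all 8.

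**Figure D3:**
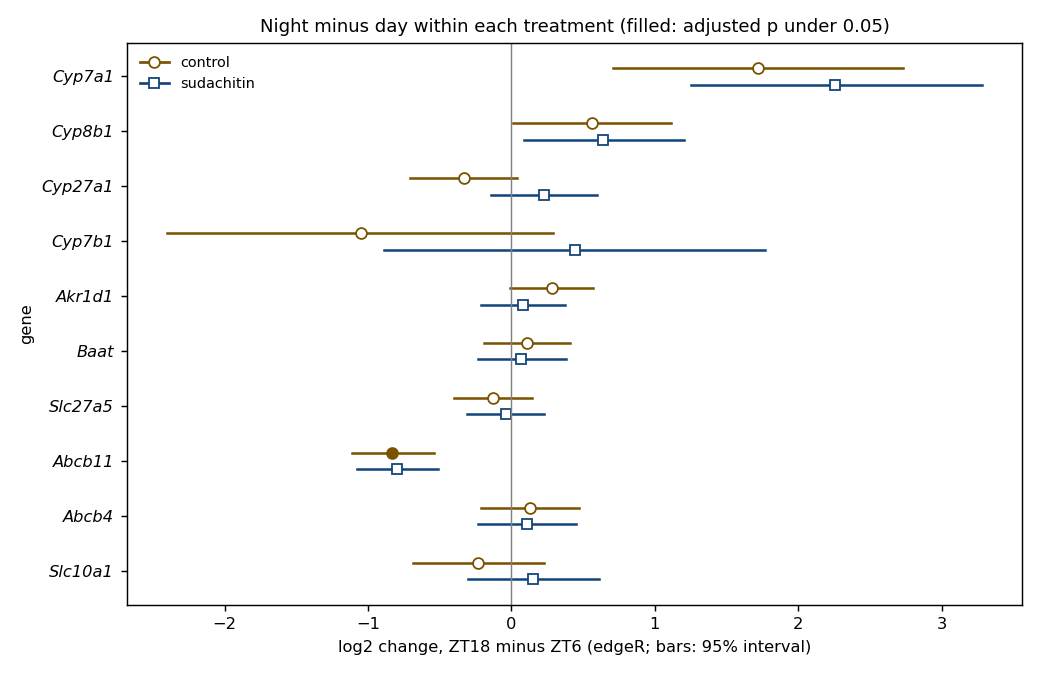
Log2 change from ZT6 to ZT18 (horizontal axis, edgeR) for each gene in control livers (circles) and sudachitin livers (squares); bars are 95% intervals and a filled symbol marks an adjusted p under 0.05. The intervals of Cyp7a1, Cyp8b1 and Abcb11 lie to one side of 0 in both treatments, and the control change of Abcb11, -0.83, is the only filled symbol.

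Sudachitin was then set against control at each time. At ZT6 none of the 10 members passed, where 0% of tested genes passed, and no member had an unadjusted p under 0.05 in edgeR; over all tested genes 308 had one, and DESeq2 called 9 genes and none of the members. The log2 differences at ZT6, sudachitin minus control, ran from -0.26 for Slc10a1 to 0.21 for Cyp7a1. FPKM values of the treatments did not overlap for 2 members (31.6% of tested genes). Slc10a1 was lower at 168 and 142 against 197 and 176 FPKM. Slc27a5 was higher at 173 and 169 against 161 and 167 FPKM. On the CPM scale Abcb11 was separated as well, at 683 and 693 CPM with sudachitin against 633 and 672 CPM. The precision differed between genes. The 95% interval of the log2 difference was -0.20 to 0.36 for Abcb11, -0.20 to 0.40 for Baat and -0.20 to 0.34 for Slc27a5, but -0.79 to 1.22 for Cyp7a1 and -1.51 to 1.15 for Cyp7b1. The last 2 intervals hold both 0 and a log2 difference of 1.

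At ZT18 none of the members passed either, where 0.0138% of tested genes did, and DESeq2 called none of them. With no filter on low counts edgeR called Cyp7a1 (adjusted p = 0.00064) and Cyp7b1 (adjusted p = 4.9e-12). No other of the 18 alternatives called either gene. Without the filter their log2 differences were 0.78 and 1.34, close to those of the main fit. The alternative-route genes and Cyp7a1 had the smallest p. Cyp27a1 was at 113 and 119 FPKM in sudachitin and 75.2 and 94.5 FPKM in control livers, a log2 difference of 0.50 (SE 0.16, 95% interval 0.13 to 0.87, edgeR adjusted p = 0.71), and it was the single member with an unadjusted p under 0.05, which 6.51% of tested genes had. Cyp7b1 had a log2 difference of 1.32 (SE 0.59, 95% interval -0.03 to 2.67, edgeR adjusted p = 0.77) and Cyp7a1 one of 0.76 (SE 0.43, 95% interval -0.21 to 1.72, adjusted p = 0.81). These 3 genes were higher in both sudachitin livers than in both control livers, and Akr1d1 was lower in both; such separation held for 30.3% of tested genes. On the CPM scale Akr1d1 overlapped, at 203 and 234 CPM with sudachitin against 231 and 241 CPM. Slc27a5 was separated on that scale only, at 811 and 799 CPM with sudachitin against 753 and 693 CPM. Without control ZT18 replicate 1 the log2 differences were 0.30 for Cyp27a1, 0.72 for Cyp7b1 and 0.31 for Cyp7a1, each smaller by more than 1.5 times. Without control ZT18 replicate 2 they were 0.74 for Cyp27a1 (edgeR adjusted p = 0.056), 2.36 for Cyp7b1 and 1.4 for Cyp7a1. Beside them, 11 of the 12 male-biased genes had a log2 difference above 0, with a median of 0.71 and none passing; their part in these values was not tested. Of the export genes, Abcb11 had a log2 difference of 0.11 (95% interval -0.18 to 0.39) and Abcb4 one of -0.06 (95% interval -0.40 to 0.28).

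Over both times none of the members passed between sudachitin and control, where 0.0207% of tested genes did, and DESeq2 called none. With no filter on low counts, the setting that called more of all genes between day and night, edgeR called Cyp7a1 (adjusted p = 0.0034) and Cyp7b1 (adjusted p = 0.00029). No other of the 17 alternatives called either gene. No member had an unadjusted p under 0.05 in edgeR, and none had treatment groups without overlap, which 1.85% of tested genes had. The largest log2 differences were 0.57 for Cyp7b1 (95% interval -0.51 to 1.65) and 0.50 for Cyp7a1 (95% interval -0.20 to 1.19). Without control ZT18 replicate 1 they were 0.17 and 0.26, and Cyp7b1 was at 0.18 without sudachitin ZT18 replicate 2. Those of Cyp8b1 and Akr1d1 were both -0.01, with intervals of -0.38 to 0.35 and -0.21 to 0.18.

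**Figure D4:**
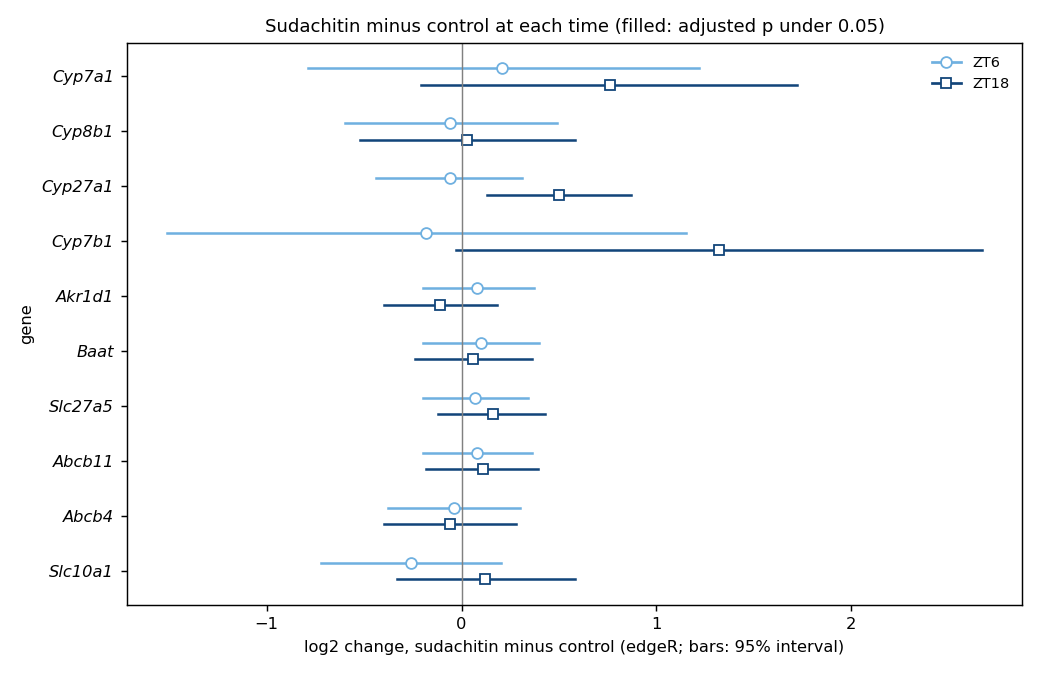
Log2 difference between sudachitin and control livers (horizontal axis, edgeR) for each gene at ZT6 (circles) and ZT18 (squares); bars are 95% intervals and a filled symbol would mark an adjusted p under 0.05. No symbol is filled, and the interval of Cyp27a1 at ZT18, 0.13 to 0.87, is the one that lies to one side of 0.

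Whether the day-night change itself differed between treatments was tested as the interaction of treatment and time. No member passed, where 0% of tested genes did; 548 of the tested genes had an unadjusted p under 0.05, and DESeq2 called 14 genes and none of the members. The interaction of Abcb11 was 0.03 on the log2 scale (SE 0.18, 95% interval -0.37 to 0.43), with changes of -0.83 and -0.80 in the treatments. That of Cyp7a1 was 0.54 (SE 0.61, 95% interval -0.85 to 1.94), an interval that holds differences in either direction, and it was 0.09 without control ZT18 replicate 1. Cyp27a1 had the smallest p of the members, with 0.57 (SE 0.23, 95% interval 0.04 to 1.09, edgeR adjusted p = 1).

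The wider pathway was read from lists chosen for their roles. Of 18 further genes of bile acid and oxysterol synthesis, 17 were tested, and over both treatments 2 rose and 2 fell from ZT6 to ZT18. Of all tested genes, 3.68% passed in that comparison. Hsd3b7, which follows CYP7A1 and CYP7B1 in both routes, measured 124 and 152 FPKM at ZT6 and 73.8 and 69.1 FPKM at ZT18 in control livers. With sudachitin it measured 147 and 139 FPKM at ZT6 and 71.8 and 80 FPKM at ZT18. It fell by 0.88 on the log2 scale (SE 0.09, edgeR adjusted p = 0.0024), a size close to that of Abcb11. The source of its counts is uncertain, because the same-strand gene Gm49388, listed at 24.059 to 49.273 FPKM, shares 93.93% of its exon bases, and an opposite-strand transcript shares 44.37%. Por, the electron donor of the microsomal cytochromes P450, rose by 1.04 (SE 0.14, edgeR adjusted p = 0.0073). Its row covers 1 transcript of 8 exons and 918 exon bases, and the values describe that transcript only. Its control levels were 17.5 and 17.3 FPKM at ZT6 and 36.4 and 23.7 FPKM at ZT18, and those with sudachitin were 14.2 and 13.4 FPKM at ZT6 and 34.7 and 29 FPKM at ZT18. Each night liver thus lay above each day liver for Por and below each for Hsd3b7. Abcd3, a peroxisomal transporter of bile acid precursors, rose by 0.39 (edgeR adjusted p = 0.037), and Akr1c6, a ketosteroid reductase, fell by 0.55 (adjusted p = 0.023).

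Among 17 tested genes of bile acid, sterol and lipid transport, 1 rose and 3 fell over both treatments, where 3.68% of tested genes passed. Abcg2, an efflux pump of the canalicular membrane, rose by 0.60 on the log2 scale (edgeR adjusted p = 0.011). Slco1b2, a sodium-independent uptake carrier of bile acids, fell by 0.48 (edgeR adjusted p = 0.017). Abcg8, which forms the biliary sterol exporter with ABCG5, fell by 0.65 (edgeR adjusted p = 0.022).

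Among 22 tested regulators, 1 rose and 2 fell over both treatments, where 3.68% of tested genes passed. Nr5a2, which encodes LRH-1, an activator of Cyp7a1 and Cyp8b1, fell by 0.48 on the log2 scale (edgeR adjusted p = 0.022). Its part in the levels of Cyp7a1 and Cyp8b1 was not tested. Klb, the co-receptor for FGF15, fell by 0.63 (edgeR adjusted p = 0.023). Nr1i3, the xenobiotic receptor CAR, rose by 0.58 (edgeR adjusted p = 0.023), although the opposite-strand gene Tomm40l shares 66.2% of its exon bases and the reads cannot be told apart. The bile acid receptor gene Nr1h4 had a log2 change of 0.34 (edgeR adjusted p = 0.087) and did not pass. Nr0b2 ranged from 7.04 to 32 FPKM and also did not pass. Of 6 tested detoxification genes, Cyp2b10, a target of CAR, rose by 3.44 (SE 0.70, edgeR adjusted p = 0.034) at very low levels, between 0.0085 and 0.0299 FPKM by day and between 0.0984 and 0.677 FPKM by night; it has close relatives between which reads could have been split.

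Clock factors and their output regulators changed in both directions. Of 15 tested, 6 rose from ZT6 to ZT18 over both treatments, among them Cry1, Per2, Nfil3, Bhlhe40 and Arntl. Another 4 fell (Nr1d1, Nr1d2, Dbp and Bhlhe41), where 3.68% of all tested genes passed in either direction. Nr1d1, the repressor REV-ERB alpha, which affects Cyp7a1 in mouse liver, was at 16 to 20.7 FPKM in the day livers and 0.798 to 1.22 FPKM in the night livers. Dbp, an activator through D-boxes, was at 10.3 to 16.9 FPKM by day and 2.14 to 3.15 FPKM by night. Exons of Dbp share 29.34% of their bases with the opposite-strand gene Sphk2, listed at 5.71 to 13.215 FPKM. The log2 changes of Nr1d1 and Dbp were -4.25 (SE 0.17, edgeR adjusted p = 9e-06) and -2.14 (SE 0.20, adjusted p = 0.0017).

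**Figure D5:**
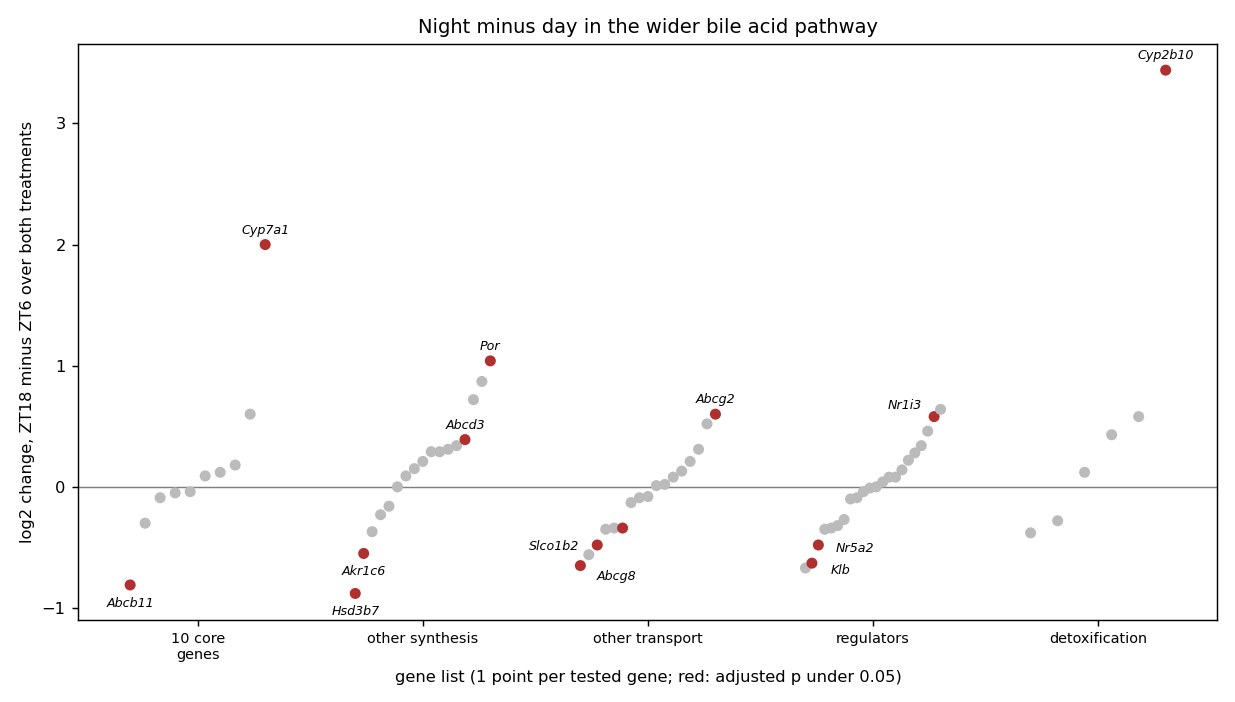
Log2 change from ZT6 to ZT18 over both treatments (vertical axis, edgeR) for each tested gene of 5 lists (the 10 core genes, other synthesis, other transport, regulators and detoxification; clock factors are not drawn), ordered by size within a list; red points have an adjusted p under 0.05, and those named in the text carry their symbol. Cyp2b10, at 3.44, lies highest of the genes drawn, and Hsd3b7, at -0.88, and Abcb11, at -0.81, lie lowest.

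Within single treatments 0.524% of all tested genes passed in control and 0.186% in sudachitin livers. Fewer genes of these lists passed there than over both treatments. In control livers they were Hsd3b7, with a fall of 0.92 on the log2 scale (edgeR adjusted p = 0.036), and 5 clock factors. In sudachitin livers they were Por, with a rise of 1.28 (edgeR adjusted p = 0.041), and 5 clock factors. Each library was also left out in turn over both treatments, a check of these lists that was added after their results were seen. Hsd3b7, Por, Nr1d1, Nr1d2, Dbp and Cry1 passed in all 8 of these fits, and Abcg2 and Per2 in 7, not without control ZT6 replicate 1. The other called genes named here passed in 1 to 5 of the 8 fits, so their calls rest on several single libraries, although each kept its direction.

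No gene of the 5 lists passed between sudachitin and control at either time, over both times or in the interaction. At ZT18 the smallest p among synthesis genes belonged to Cyp46a1, a cholesterol hydroxylase, with a log2 difference of -1.14 (edgeR adjusted p = 0.71), and among transporters to Slco1a4, an organic anion carrier, with -1.47 (adjusted p = 0.72). Both had their highest value in control ZT18 replicate 1, at 2.69 FPKM for Cyp46a1, against 0.536 to 1.29 FPKM elsewhere, and at 12.6 FPKM for Slco1a4, against 2.37 to 4.74 FPKM elsewhere. Among regulators it belonged to Cebpb, an activator of liver genes, at 43.3 and 41.9 FPKM in sudachitin and 31.1 and 26.7 FPKM in control livers, a log2 difference of 0.62 (edgeR adjusted p = 0.52). An opposite-strand gene, Tmem189, shares 20.74% of its exon bases. At ZT6 the smallest p of the synthesis list was that of Por, at -0.33 (edgeR adjusted p = 1).

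Acute-phase and macrophage genes lay higher with sudachitin at ZT6 without passing the test. All 12 acute-phase genes had a log2 difference above 0 between sudachitin and control livers at ZT6, with a median of 0.48, and none passed. Saa1 of this list measured 459 and 240 FPKM in sudachitin ZT6 livers against 16.9 and 14.3 FPKM in control ZT6 livers. All 10 Kupffer cell markers were also above 0, with a median of 0.64 and none passing, and their summed level was 177 and 276 CPM against 131 and 153 CPM. Over all tested genes the median log2 difference was -0.01. The part of these genes in the members' values was not tested.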

How the data were processed

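Poly(A) RNA of 8 mouse livers (2 mice in each of 4 groups) was sequenced without strand information as 150-base read pairs. Trimmomatic 0.39, STAR 2.7.2a and HOMER (version not given) with GRCm38 (mm10) are named in the submitters' processing notes. The deposited table of estimated counts is not normalized, per the file headers, and its values move in steps of 0.5; they were rounded to whole numbers, with 0.5 upward, before testing. The deposited FPKM are the same counts divided by exon length and by the library total in the column header. Groups and replicate numbers come from the sample titles, which name separate mice.

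Testing used edgeR 4.0.16 under R 4.3.3 (TMM, 0.966 to 1.016, default filter on low counts, quasi-likelihood F test). A model of 4 group means gave changes within a time or a treatment, plus their interaction; changes over both came from an additive model. P-values were adjusted by Benjamini-Hochberg over 14506 genes, with a threshold of 0.05. The SE is the log2 change divided by the square root of F, and intervals cover 95%. DESeq2 1.42.0, limma 3.58.1 on log2(FPKM + 0.1) and log2(FPKM + 1), other scalings, filters and rounding, a replicate block and leaving out each library were alternatives. The scripts were tested on simulated data.

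All 10 members are named. Of the pathway, regulator, clock and detoxification lists, genes passing in a comparison and up to 3 with the smallest p are named; Nr1h4, Nr0b2, Slco1a1 and Saa1 were singled out after their values were seen. List counts include 2 called genes that are not reported here by name. Members and lists were chosen with earlier results of these data known.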

Additional observations from a re-analysis of the deposited data

Results flagged for a closer look

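Cyp27a1, the hydroxylase that opens the alternative route, moved in opposite directions between ZT6 and ZT18 in the 2 treatments. Both control ZT18 livers lay below both control ZT6 livers, and both sudachitin ZT18 livers lay above both sudachitin ZT6 livers. Such separation of day and night held for 40.4% of tested genes in control livers and 48.8% in sudachitin livers. Neither change of Cyp27a1 passed (edgeR adjusted p = 0.43 and 0.61). The interaction was 0.57 on the log2 scale (edgeR adjusted p = 1), so the difference between treatments did not pass its own test. Without control ZT18 replicate 1 it was 0.35, and without control ZT18 replicate 2 it was 0.80. With 2 mice a group, the values of Cyp27a1 alone cannot show which mouse of a group lies out. Control ZT18 replicate 1, which stood apart over all tested genes, is 1 of the 2 control night livers here.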

How the results depend on the processing

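Counts of members called moved with the processing as follows. Without a filter on low counts, 4 members passed between ZT6 and ZT18 in control livers, where 3.1% of the genes tested that way did. In sudachitin livers 3 passed, where 3.02% of those genes did. The main fit called 0.524% of tested genes in control and 0.186% in sudachitin livers, so calls rose over all genes without the filter. The setting with no filter called 3 members over both treatments. It called 2 (Cyp7a1 and Cyp7b1) between treatments at ZT18 and over both times, and 1 (Cyp7b1) in the interaction. The share of all genes called between treatments with that setting is not reported here. No other alternative called a member between treatments or in the interaction. With only the compared groups in the fit, 0 passed in control and 1 (Cyp7a1) in sudachitin livers, where 0.029% and 0.376% of tested genes did. DESeq2 also called 3 over both treatments, with Cyp8b1 beside Cyp7a1 and Abcb11. In control livers DESeq2 called 1, where 2.09% of its tested genes passed, beside 0.524% in the main fit. In sudachitin livers DESeq2 called 2 (2.09% of its tested genes), and limma called 1 with either pseudocount (0.145% of tested genes). Leaving out each library gave 0 to 1 members in control livers, 0 to 2 in sudachitin livers and 1 to 2 over both treatments, the 1 without sudachitin ZT6 replicate 1. In control livers Abcb11 passed in 1 of these 8 fits, without control ZT18 replicate 2. In sudachitin livers the log2 change of Cyp7a1 was 2.25 without control ZT18 replicate 1 and 2.26 without control ZT18 replicate 2. That of Abcb11 was -0.81 and -0.80 in these fits. The main changes were 2.26 and -0.80. The number of all genes called also moved between fits, as given below. With the replicate block, 0 members passed in control livers (Abcb11 edgeR adjusted p = 0.054), where 0.296% of tested genes did. The labels do not say whether the numbers pair the mice. Deviations of same-numbered mice correlated between -0.20 and 0.28 across genes, which cannot decide it. Over both treatments Abcb11 passed in 17 of 17 alternatives (log2 change -0.87 to -0.79) and Cyp7a1 in 16 of 17 (1.64 to 2.34). Of 1230 values of single members, 1130 kept direction and side of the threshold, 10 lost the call, 22 gained it, and 68 that were called under neither setting changed sign, at sizes up to 0.4. The number of all genes called ranged from 4 to 881 in control livers, from 1 to 861 in sudachitin livers and from 164 to 1629 over both treatments; over both treatments it was 1048 without control ZT18 replicate 1. The causes were not tested. With 2 mice a group, the spread between mice adds to the counting error at this depth.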
